A study of Mus musculus with 4 samples.

Results

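The miR-148 and miR-152 family comprises the microRNA genes mir-148a, mir-148b and mir-152. They were taken by name from a table of 626 microRNA entries, each named by its precursor, and all 3 were present and had enough counts to be measured. MicroRNAs were profiled by small RNA sequencing in mouse embryoid bodies (EBs) at day 8 and in the embryonic stem cells (ESCs) they were made from, at day 0. Both groups came from the feeder-independent ESC line CGR8, labelled with background strain C57BL/6 and donor strain 129P2/OlaHsd, at passages 5 to 13, so the data rest on 1 cell line. The EBs were grown without leukemia inhibitory factor (LIF) in 20% serum, first as hanging drops of 1000 cells for 2 days and then in suspension for 6 days. The ESCs were kept in 10% serum with 100 U/ml of LIF. The comparison asks how the abundance of each microRNA in the differentiating aggregates stood against that in the stem cells.

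MicroRNAs pair with target messenger RNAs mainly through the seed, bases 2 to 8 of the mature strand, so genes that share a seed are expected to share many targets. The best known target of this family is Dnmt1, the enzyme that copies DNA methylation after replication, described for miR-148a and miR-152 mostly in human cells. MiR-148a is also known to promote the differentiation of mouse myoblasts. MiR-152 lies within the gene of a coatomer subunit, Copz2, and is often silenced together with it in human tumours.

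The 3p strands carry the family seed and are shown because they make the 3 genes one targeting family. Sequences are mature microRNAs from RefSeq (build GRCm38.p6), written 5′ to 3′ with the seed in capitals.
miR-148a-3p: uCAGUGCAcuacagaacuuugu
miR-148b-3p: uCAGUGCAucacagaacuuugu
miR-152-3p: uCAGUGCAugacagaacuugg
Among the RefSeq mature forms of the 510 entries that could be matched by symbol or name, no other entry carried this seed. Counted from the 5′ end, miR-148b-3p differs from miR-148a-3p by C9U and U10C, and miR-152-3p differs from miR-148a-3p by C9U, U10G and U20G. MiR-152-3p differs from miR-148b-3p by C10G and U20G over the 21 bases they have in common. A read could therefore be moved from one member to another by as few as 2 mismatched bases, whereas the nearest mature form outside the family had 8 mismatches over the first 20 bases. How many mismatches read assignment allowed is not stated by any source used here, and exchange of reads between the members was not tested. The table does not separate the 5p from the 3p strand of a precursor.

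The 3 genes lie on different chromosomes. In the GENCODE M21 annotation (GRCm38), Mir148a spans 51269812 to 51269910 on the minus strand of chromosome 6 and overlaps no annotated gene. Mir148b spans 103285125 to 103285221 on the plus strand of chromosome 15, within Copz1. Mir152 spans 96850393 to 96850465 on the plus strand of chromosome 11, within Copz2. Copz1 and Copz2 encode alternative zeta subunits of the COPI vesicle coat, and each host gene is on the same strand as its microRNA. Neither hairpin overlapped an annotated exon of its host, so both are intronic. Host messenger RNA was not measured.

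The total microRNA count was 139104 in EB replicate 1, 139360 in EB replicate 2, 557250 in ESC replicate 1 and 557643 in ESC replicate 2. Replicate columns within a group differed by less than sampling noise, with a chi-square per degree of freedom of 0.284 for the EB pair and 0.235 for the ESC pair, where independent counting gives about 1. The mean of a pair was thus taken as 1 sample, which leaves 1 library for each group, no replicate check and no p-value. The intervals below are exact 95% intervals that cover counting error only and take the scaling between libraries as exact. Libraries were scaled with TMM (trimmed mean of M-values), and its log2 folds were all lower by 0.28 than those from library totals. The stem cell microRNAs mir-290a, mir-291a, mir-292a, mir-293, mir-294 and mir-295 together took 52.0% of EB counts and 53.0% of ESC counts, so ESC markers were abundant in the EB library too. These near-equal sums cover opposite differences, with 4 of the 6 at least 2-fold lower in EBs and mir-294 at 26.3% of EB counts against 5.26% of ESC counts. Over the 367 entries that passed the filter on low counts, 30.2% were at least 2-fold lower in EBs and 33.5% higher. The primed-stage microRNAs of the miR-302 and miR-367 cluster took 6.53% of EB counts and 0.0341% of ESC counts. In whole cultures, more cells expressing a microRNA and more of it per cell cannot be told apart.

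The family members went in opposite directions. Mir-152 was 7.20-fold higher in the EB library, mir-148b was 2.63-fold lower and mir-148a was 1.74-fold lower. Taking 2-fold as the mark, 1 member was higher, 1 lower and 1 under 2-fold. Among the 367 entries that passed the filter on low counts, 33.5% were higher in EBs and 30.2% lower by the same mark, so 1 of 3 in each direction is near the background. The genes were selected on their shared seed with the EB and ESC counts of this table already known, so the EB to ESC differences are given as a description.

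Mir-152 had 203 and 202 counts in the EB columns, against 93 and 92 counts in the ESC columns, although the EB libraries were 4.0 times shallower. After TMM scaling these were 1371 and 1269 CPM (counts scaled to a common library total) in the EB columns and 184 and 182 CPM in the ESC columns. The EB columns were both above the ESC columns, as were those of 48.8% of all measured entries. The fold of the mean counts was 7.20 (5.61 to 9.31), a log2 fold of 2.85 (2.49 to 3.22). By mean count, mir-152 ranked 63rd of the 626 entries in the EB library and 186th in the ESC library. Its fold was the 46th highest of the 367 measured entries. In the authors' deposited quantile-normalized values, mir-152 had 752 and 758 in the EB columns and 66.5 and 66.2 in the ESC columns, an 11.4-fold difference, so the size of the difference depended on the scaling.

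Mir-148a had 97 and 87 counts in the EB columns, against 525 and 527 counts in the ESC columns. TMM-scaled levels were 655 and 546 CPM in the EB columns and 1040 and 1041 CPM in the ESC columns. The EB columns were both below the ESC columns, as were those of 46% of all measured entries, so the lack of overlap sets none of the members apart. The mean was 1.74-fold lower in the EB library (1.39 to 2.19), a log2 fold of -0.80 (-1.13 to -0.48). Mir-148a ranked 121st in the EB library and 93rd in the ESC library. In the authors' quantile-normalized values it was 2.38-fold lower, past 2-fold, with 146.5 and 128 in the EB columns and 326 in both ESC columns.

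Mir-148b was the scarcest member in the EB library, with 14 and 15 counts in the EB columns against 125 and 126 counts in the ESC columns. That is 94.6 and 94.2 CPM in the EB columns and 248 and 249 CPM in the ESC columns, again with both EB columns lower. A floor of 3 counts stood at 19.5 CPM in the EB library and 5.93 CPM in the ESC library, so mir-148b was above it in both. The mean was 2.63-fold lower in the EB library (1.52 to 4.89), and the interval includes differences under 2-fold. Mir-148b ranked 256th in the EB library and 161st in the ESC library. The wide interval reflects the 14.5 mean EB counts, the fewest behind any value of the family.

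**Figure D1:**
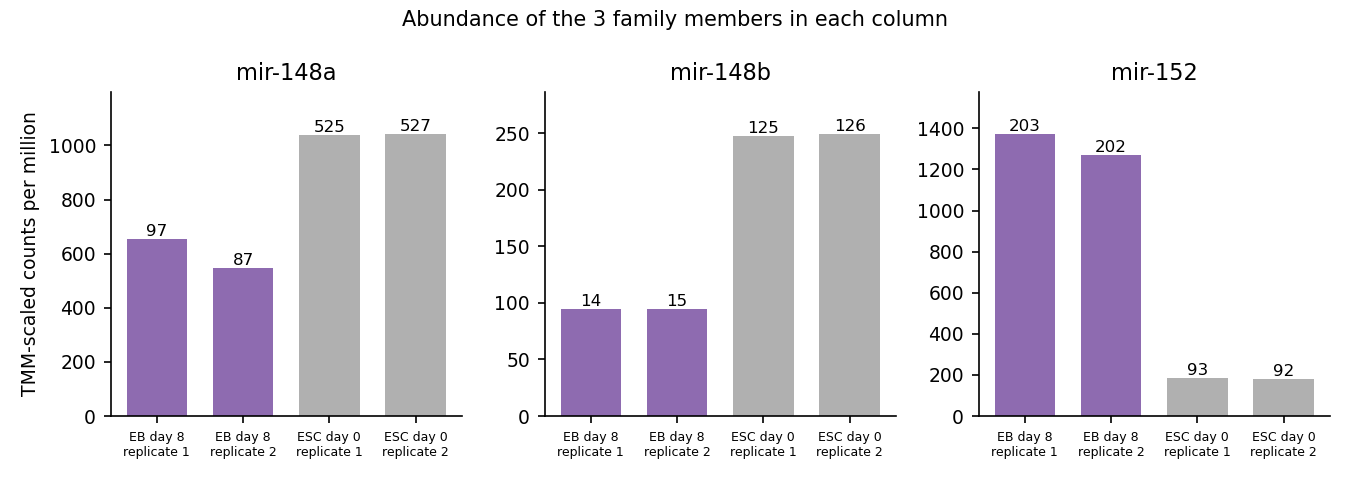
TMM-scaled CPM of mir-148a, mir-148b and mir-152 (panels, each with its own y axis from 0) in the 2 EB day 8 columns and the 2 ESC day 0 columns, with the original count above each bar. The EB bars are lower than the ESC bars for mir-148a and mir-148b and higher for mir-152, which stands at 1371 and 1269 CPM in the EB columns against 184 and 182 CPM in the ESC columns.

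The make-up of the family needs no scaling between libraries and was turned over. Mir-152 took 65.5% of the family's counts in the EB library (59.9 to 70.8) and 12.4% in the ESC library (10.15 to 15.02). Mir-148a took 29.8% in the EB library (24.7 to 35.2) and 70.7% in the ESC library (67.3 to 73.9). Mir-148b took 4.69% in the EB library (2.62 to 7.68) and 16.9% in the ESC library (14.2 to 19.8). For each member the intervals of the EB and ESC libraries did not overlap. The shares of a library make up the whole family, so these are not separate observations. Among the 367 measured entries, the counting interval of the fold excluded equal levels for 138 higher and 128 lower in EBs. Separation beyond counting error was thus common and sets no member apart. By column, the share of mir-152 was 64.6% and 66.4% in the EB columns and 12.5% and 12.3% in the ESC columns.

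The order of the members also differed between the libraries. In the EB library mir-152 exceeded mir-148a by 2.20 times (1.71 to 2.85), and mir-148a exceeded mir-148b by 6.34 times (3.63 to 11.9). In the ESC library mir-148a exceeded mir-148b by 4.19 times (3.44 to 5.13), and mir-148b exceeded mir-152 by 1.36 times (1.03 to 1.79), a step close to counting error. The mature 3p forms are 22, 22 and 21 bases long, so counts were compared without a length correction. Capture by adapter ligation can differ between sequences and was not measured, which bears on the order within a library.

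**Figure D2:**
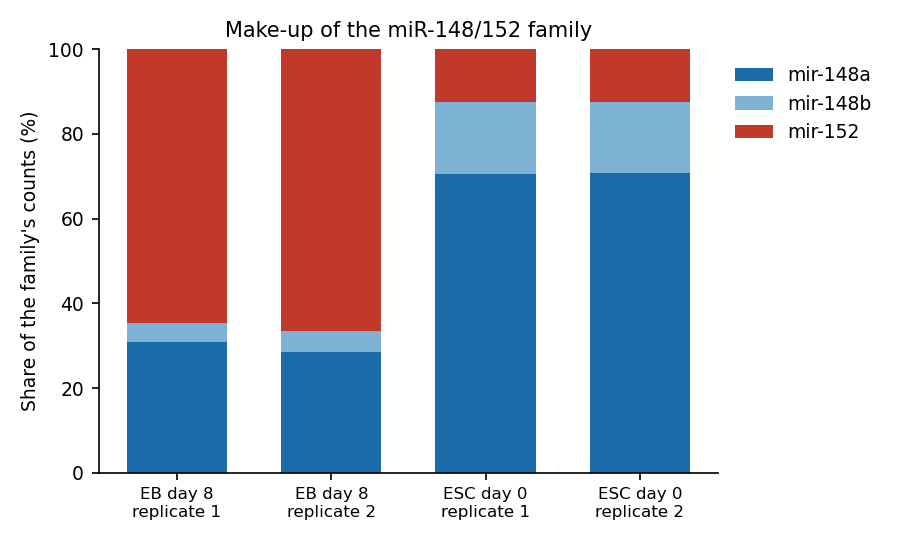
Share of the family's counts, in percent, taken by mir-148a (dark blue), mir-148b (light blue) and mir-152 (red) in each EB day 8 and ESC day 0 column. Mir-152 holds 64.6% and 66.4% of the EB columns and 12.5% and 12.3% of the ESC columns, and mir-148a holds most of the ESC columns.

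Ratios between members gave the same comparison free of scaling. The ratio of mir-152 to mir-148a was 2.09 and 2.32 in the EB columns, against 0.177 and 0.175 in the ESC columns. It was 12.4 times higher in the EB library than in the ESC library (8.85 to 17.6, exact conditional interval of the odds ratio). The ratio of mir-152 to mir-148b was 14.5 and 13.5 in the EB columns and 0.744 and 0.730 in the ESC columns, 18.2 times higher in the EB library (9.96 to 35.4). The ratio of mir-148b to mir-148a was 0.144 and 0.172 in the EB columns and 0.238 and 0.239 in the ESC columns. Its EB to ESC ratio of 0.681 had an interval of 0.354 to 1.23, so a difference between mir-148a and mir-148b in how far they were lower was not detectable at this depth. Between the EB and ESC libraries, the ratio within the intronic pair mir-148b and mir-152 thus differed more than that of mir-148a and mir-148b. Within the ESC library alone the intronic pair was the closer one, at 1.36 times against 4.19 times.

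With members in opposite directions, the summed family differed by less than 2-fold, by an amount that depended on the scaling. The 3 members summed to 314 and 304 counts in the EB columns and 743 and 745 counts in the ESC columns. That was 0.222% of EB counts (0.198 to 0.248) and 0.133% of ESC counts (0.124 to 0.143). After TMM scaling the sum was 2011 CPM in the EB library and 1472 CPM in the ESC library, a 1.37-fold difference (1.19 to 1.56). The difference was 1.66-fold with library totals and 1.90-fold in the authors' quantile-normalized values, each outside that interval. The summed precursor counts, which hold both strands, were thus higher in the EB library by less than 2-fold. Most of them came from mir-152 in the EB library and from mir-148a in the ESC library.

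**Figure D3:**
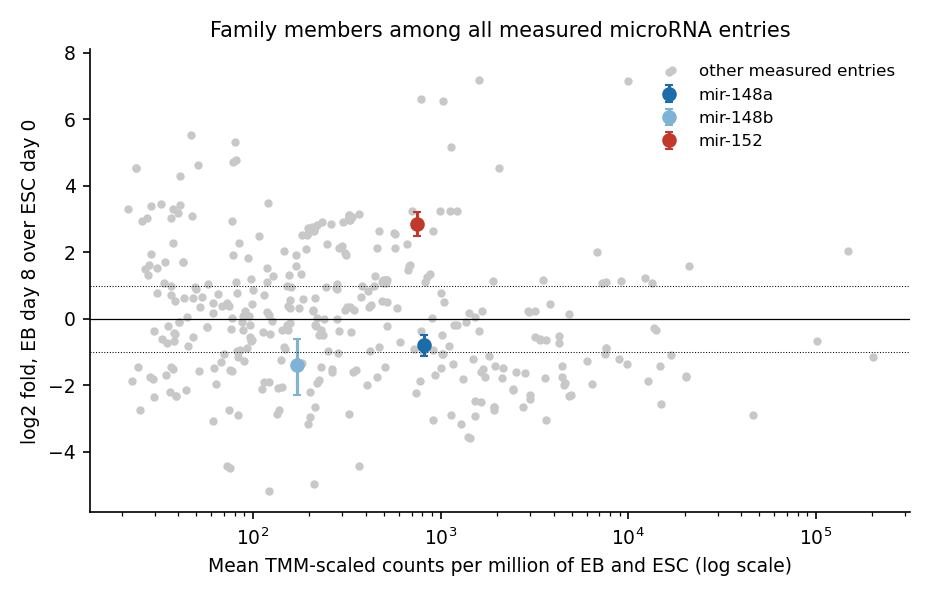
The log2 fold of EB day 8 over ESC day 0 (y axis) against the mean TMM-scaled CPM (x axis, log scale) for 367 measured entries, with bars for exact 95% counting intervals of the family members and dotted lines at 2-fold. Mir-152, at 2.85, lies above the upper dotted line, and mir-148a and mir-148b lie below 0 at -0.80 and -1.40.

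Entries that share part of the family's 5′ end were found by sequence, to set the family beside them. The family's seed holds the 5 bases AGUGC, which also occur in the seeds of miR-130, miR-301a, miR-17 and several stem cell microRNAs. Examples are shown here with AGUGC in capitals (RefSeq, GRCm38.p6, 5′ to 3′).
miR-130b-3p: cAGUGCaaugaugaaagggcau
miR-301a-3p: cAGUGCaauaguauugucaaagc
miR-294-3p: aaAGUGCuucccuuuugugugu
miR-302d-3p: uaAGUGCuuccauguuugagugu
AGUGC begins at base 3 in the 3 family members, at base 2 in miR-130b-3p and miR-301a-3p, and at base 3 in miR-294-3p and miR-302d-3p, where the preceding and following bases differ from those of the family. Besides the family, 20 of the 510 matched entries had a mature form with AGUGC within bases 1 to 8, and all 20 were measured. The 116 unmatched entries were not searched, so the list may be incomplete. Mir-292a, mir-301b and mir-302a were not among the 20, which does not show that they lack AGUGC. In mir-293, the most abundant of the 20 in the ESC library, AGUGC begins at base 1, so its seed does not hold all 5 bases. Past the 2-fold mark, 11 were higher in EBs and 6 were lower, 3 lay within it, and the median log2 fold was 1.07, against 0.07 over all measured entries. The background shares are 33.5% higher and 30.2% lower, so 6 of 20 lower is at the background and 11 of 20 higher is above it. The list holds entries of the same cluster, such as mir-302b, mir-302c and mir-302d. Its entries are therefore not separate observations, and the higher share was not tested. With library totals the counts were 11 higher and 3 lower, and with no filter on low counts 7 higher and 6 lower. Without EB replicate 1 or without EB replicate 2, 3 were lower.

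These 20 entries together took 58.9% of EB counts and 46.3% of ESC counts, far above the 0.222% and 0.133% of the family. Entries that the search did not find are not in these sums, which may therefore be too low. The most abundant of the 20 in the EB library were mir-294 with 26.3%, mir-293 with 13.8%, mir-302d with 3.76% and mir-302b with 2.18% of EB counts. Those in the ESC library were mir-293 with 24.9%, mir-291a with 7.41%, mir-294 with 5.26% and mir-295 with 2.08% of ESC counts. Mir-292a, which was not among the 20, took 8.62% of EB counts and 11.4% of ESC counts. In miR-130 and miR-301a the seed is shifted by 1 base against that of the family, and miR-130a is known to repress Smad4, a mediator of TGF-β signalling. Mir-130a had 1590 and 1594 counts in the EB columns against 2438 and 2448 counts in the ESC columns, 2.14-fold higher in the EB library (2.01 to 2.29). Mir-301a was 2.24-fold higher (2.04 to 2.46) and mir-301b 1.58-fold higher (1.17 to 2.11), while mir-130b lay at 0.931-fold (0.792 to 1.09). None of these had a fold as high as that of mir-152, and none was as low as mir-148a.

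Other microRNAs linked to DNA methyltransferases, mostly from human cells, were set beside the family as a chosen list of 9 entries, which need not be complete. They were the miR-29 family, known to target Dnmt3a and Dnmt3b, miR-143, known to target DNMT3A in human cells, and miR-126, miR-140, miR-185 and miR-342, reported to target DNMT1 in human cells. All 9 were measured, none was higher in EBs by 2-fold, 3 were lower by 2-fold or more, and 6 lay between. Against background shares of 33.5% higher and 30.2% lower, 3 of 9 lower is near the background. The median log2 fold was 0.19, against 0.07 over all measured entries. Mir-140 had 249 and 247 counts in the EB columns against 2810 and 2818 counts in the ESC columns, with a log2 fold of -1.79 (-1.98 to -1.60). Mir-185 had 50 and 52 counts in the EB columns against 610 and 616 counts in the ESC columns, with a log2 fold of -1.87 (-2.31 to -1.46).

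The lowest of the list was mir-143, with 10 and 14 counts in the EB columns against 285 and 293 counts in the ESC columns and a log2 fold of -2.87 (-3.84 to -2.05). The abundant entries mir-126a and mir-342 lay at log2 folds of 0.19 (0.04 to 0.34) and 0.05 (-0.17 to 0.26). The 4 miR-29 entries lay at 0.28 to 0.48, each with an interval that included no difference. The copies mir-29b-1 and mir-29b-2 had near-equal EB counts, 76 and 73 against 70 and 73, and each entered the list and its sum. The summed list was 0.634-fold in the EB library relative to the ESC library (0.596 to 0.674). In these libraries no entry of the list matched the 7.20-fold of mir-152.

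The directions of the family were the same under each scaling. They were the same with each column left out too, but the columns of a group are near copies, so that is no check of stability. Over the 9 alternatives mir-152 was 6.50-fold to 11.4-fold higher in the EB library, mir-148b was 2.16-fold to 3.53-fold lower and mir-148a was 1.36-fold to 2.38-fold lower. The summed family was 1.23-fold to 1.90-fold higher. Relative to the median of all measured entries, the log2 fold of mir-152 was 2.78 with TMM, and 3.69 after the quantile normalization of the authors. Library totals and DESeq2 size factors shift every entry alike and cannot change the first value.

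**Figure D4:**
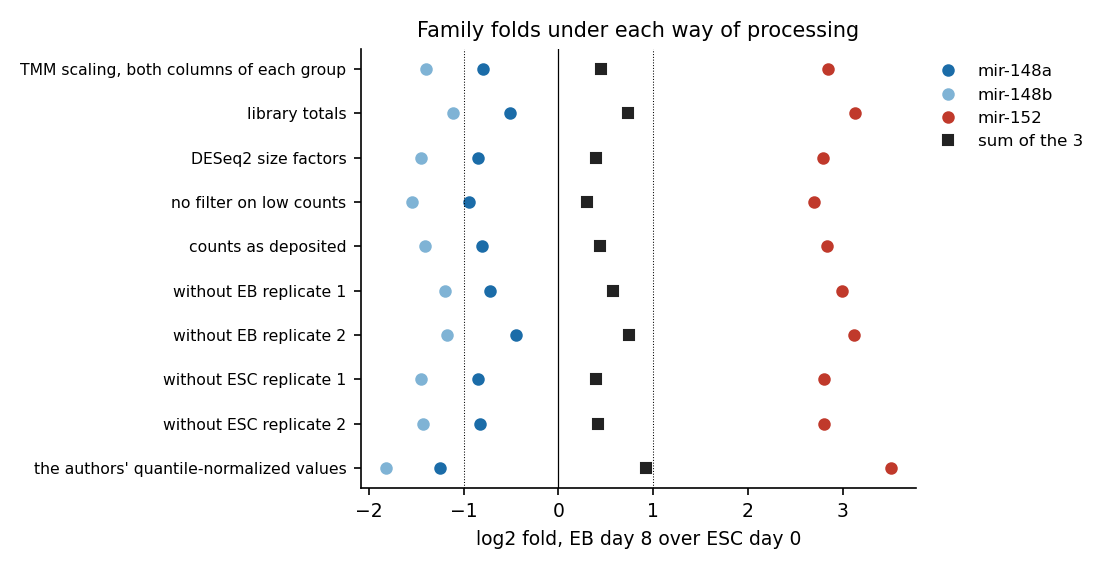
The log2 fold of EB day 8 over ESC day 0 (x axis) of mir-148a, mir-148b, mir-152 and their sum under the main processing (top row) and 9 alternatives, with dotted lines at 2-fold. Mir-152 stays between 2.70 and 3.51, and mir-148a crosses the 2-fold line in the quantile-normalized values, at -1.25.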

How the data were processed

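Small RNA libraries were sequenced on an Ion Torrent PGM, per the labels' protocols. No source used here names the aligner, the counter, the build or the microRNA database. The authors deposited original counts, whole numbers with no normalization per the file headers. The normalized signal deposited by the authors was made of 1 set of values repeated in each of the 4 columns, as quantile normalization leaves it. Another 15 value columns (transformed values, means and comparisons) were not used. Counts from the mir-664 row on, where the count cells are blank, were moved up by 1 row. The move changes which entry a count belongs to from that row on, and moves no count of a family member. With unmoved counts, 10 of the 20 entries found with AGUGC were at least 2-fold higher in EBs and 7 lower. The rank correlation of counts with normalized values over the moved rows was 0.355 to 0.541 before and 0.995 to 0.998 after the move. The 4 counts of mir-99b were rebuilt as the 1 set of 7280 that gave all normalized values. Library totals changed only through these rebuilt counts.

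Columns of a group were compared by chi-square, using entries whose 2 counts summed to 10 or more, and then averaged. PCR copies were counted as reads, since no molecular identifier is described. Whether the replicates came from separate cultures is not stated. TMM factors were computed with edgeR 4.0.16 after filterByExpr, with a minimum count of 10 and a minimum total of 15. Folds used exact conditional binomial intervals and shares used Clopper-Pearson intervals, at 95%; odds ratios used mean counts rounded to whole numbers. Where a group had 0 counts, a floor of 3 counts per library was used. Alternatives were library totals, DESeq2 1.42.0 size factors, quantile-normalized values, no filter, unmoved counts and leaving out each column. Calculations used Python 3.11.15 (scipy 1.17.1, pandas 2.3.3, numpy 2.4.6, matplotlib 3.10.9) and R 4.3.3, and the fold calculation was tested on simulated data.

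The members and lists were chosen with earlier results of these data known. The text names the 3 members; entries of the DNA methyltransferase list past 2-fold or among its 4 most abundant; the 4 most abundant entries with AGUGC in each library and the miR-130 and miR-301 entries; and, for each member, the 2 measured entries of another seed with the closest log2 fold among those within 2-fold of its mean CPM. Of 626 entries, 479 were matched to RefSeq by symbol and 510 by symbol or mature name. Only these 510 were searched for the seed and for AGUGC.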

Additional observations from a re-analysis of the deposited data

How the results depend on the processing

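The direction of every member and of the summed family was the same under the 9 alternatives run, 4 of which leave out a column that is a near copy of another and are no check of stability. In the authors' quantile-normalized values the log2 folds were -1.25 for mir-148a, 3.51 for mir-152 and 0.92 for the summed family, outside the counting intervals, and mir-148a and mir-152 took 14.9% and 82.2% of the family's EB values, with the family at 0.264% of all EB values. Quantile normalization is not proportional to counts, so such shares are not shares of reads. With library totals the summed family was at 0.73. With 1 column left out at a time the log2 fold was -0.85 to -0.45 for mir-148a and 0.40 to 0.75 for the summed family, where -0.45 and 0.75 came without EB replicate 2. Among the 20 matched entries found with AGUGC, 11 were at least 2-fold higher with the main processing and 7 with no filter on low counts. On the lower side, 6 were at least 2-fold lower with the main processing and 3 with library totals. Leaving out 1 column gave 3 to 6 lower, with 3 without EB replicate 1 and 3 without EB replicate 2. The cause of these shifts was not tested. Over all measured entries the counts were 123 higher and 111 lower, and 115 and 134 with no filter.

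The quasi-likelihood test of edgeR on all 4 columns, which treats the columns as replicates, called 156 entries higher and 144 lower at an adjusted p under 0.05; with the replicate block the paired fit called 156 and 144, and DESeq2 called 134 and 134. These calls rest on a spread below counting error and support no statement here. Depth limits mir-148b most, at 14.5 mean EB counts.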

Other observations

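A few other microRNA entries near mir-152 and mir-148b were looked at after the family's values were seen. Near mir-152, mir-196a-1 (585 kb away) had 56.5 mean EB counts and 146.5 mean ESC counts, a 1.27-fold difference (0.916 to 1.74), and mir-10a (533 kb away) had 2 mean EB counts and 23 mean ESC counts, a 0.286-fold difference (0.0327 to 1.16). Near mir-148b, mir-196a-2 (312 kb away) lay at 1.28-fold (0.919 to 1.76), and mir-615 (270 kb away) had 0 mean EB counts and 5 mean ESC counts, under the depth needed for a fold. None of the 3 intervals excluded equal levels, so differences in these neighbours were not detectable at this depth. Copies mir-196a-1 and mir-196a-2 make the same mature microRNA, and their reads cannot be told apart.

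The entries most like each member in log2 fold, at a similar abundance and over only 2 libraries, were as follows. For mir-152 they were mir-142a, a microRNA of blood cells, at 2.65 (2.21 to 3.11) and mir-669c, of a rodent repeat family, at 2.63 (2.32 to 2.95). For mir-148a they were mir-541 at -0.83 (-1.12 to -0.55) and mir-665 at -0.83 (-1.29 to -0.41). For mir-148b they were mir-361 at -1.45 (-2.22 to -0.76) and mir-1198 at -1.34 (-2.19 to -0.58). They were picked from 75, 77 and 118 candidates, and each lay within 0.22 of its member on the log2 scale.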
